A study of Mus musculus with 12 samples.

Results

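Chemokines are small secreted proteins that direct the movement of leukocytes, and the genes for these proteins and for their receptors were followed here in adipose tissue of mice 7 days after a scald burn. The members are the protein-coding genes named Ccl, Cxcl, Ccr or Cxcr followed by a digit, together with Cx3cl1, Cx3cr1, Xcl1, Xcr1 and Ackr1 to Ackr4. This naming rule gave 62 genes, 39 ligands and 23 receptors, of the 27179 gene identifiers in the count tables. All 12 libraries came from wild-type (WT) C57BL/6J mice and were collected on day 7, with 3 libraries in each group. Adult control and Aged control mice were untreated. Adult burn mice had a scald of 30% of total body surface area, from immersion of the back in water at 98 °C for 10 s (20%) and of the belly for 2 s (10%), whereas Aged burn mice had only the dorsal 20%. Buprenorphine was given against pain. The sources used here give no age in weeks, sex, fat depot or pooling of animals, and the labels number the libraries without tying each to a mouse, so every p-value below measures the spread between these libraries, which may be technical.

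As background, chemokines bind receptors coupled to inhibitory G proteins, and each leukocyte class carries its own set. Monocytes follow ligands of Ccr2, Ccr1 and Cx3cr1 into tissue, neutrophils follow the ligands of Cxcr2, and lymphocytes and dendritic cells use receptors such as Ccr7, Cxcr5 and Cxcr3. In adipose tissue these axes are best known for the recruitment of monocytes that become tissue macrophages. Atypical receptors (Ackr) bind chemokines without classical G protein signalling and clear or transport them.

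Levels are CPM (read counts relative to library size, with TMM factors from the 12 libraries) and describe RNA of whole tissue, in which fewer cells of a type and less RNA per cell cannot be told apart. Library totals ran from 25231506 to 46531070 counts. The labelled tissue was checked against 9 adipocyte markers, all of which had reads in every group and summed to 19820 to 56200 CPM in the 9 control and burned adult libraries. In burned aged mice the same markers summed to 9617 CPM in Aged burn 2 and to 24210 and 26120 CPM in the other libraries. Several libraries stood apart from their groups in cell markers. The 8 B cell markers summed to 1596 CPM in Adult control 1 and to at most 39.04 CPM in any other library. The 13 neutrophil markers, of which Cxcr2 is itself a member, summed to 2011 CPM in Aged burn 2 and to at most 210.0 CPM elsewhere, the latter in Adult control 3. Adult burn 1 had skeletal muscle markers at 2633 CPM. The part of these library differences in the results below was not tested unless a value without the library is given.

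Reads were found in all 12 libraries for 43 of the 62 members and in none for Ccl21c and Ccl21d. Filtering on low counts left 38 members in the test of burn in adult mice, 42 in the test of burn in aged mice and 45 in the tests that used all 12 libraries. The 17 members tested nowhere were Ccl1, Ccl17, Ccl19, Ccl20, Ccl21a, Ccl21b, Ccl21c, Ccl21d, Ccl26, Ccl27b, Ccr1l1, Ccr4, Ccr6, Ccr8, Cxcl15, Cxcl17 and Cxcr1. Of these, Ccr6 reached 23.6 CPM in Adult control 1 and the others did not exceed 2.3 CPM (Ccr8, in the same library). Divided by exon length, the mean level over the 12 libraries was highest for Ccl8 (440.7 CPM per kb), followed by Ccl6 (286.8), Ccl9 (98.79) and Ccl11 (58.1). The order differed between groups: in aged controls Ccl11 was highest (86.4 CPM per kb), followed by Cxcl14 (48.9), Ccl6 (36) and Ccl8 (27.1). The heat map of member levels shows bright columns in Aged burn 2 for the monocyte and neutrophil genes and in Adult control 1 for lymphocyte genes.

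**Figure D1:**
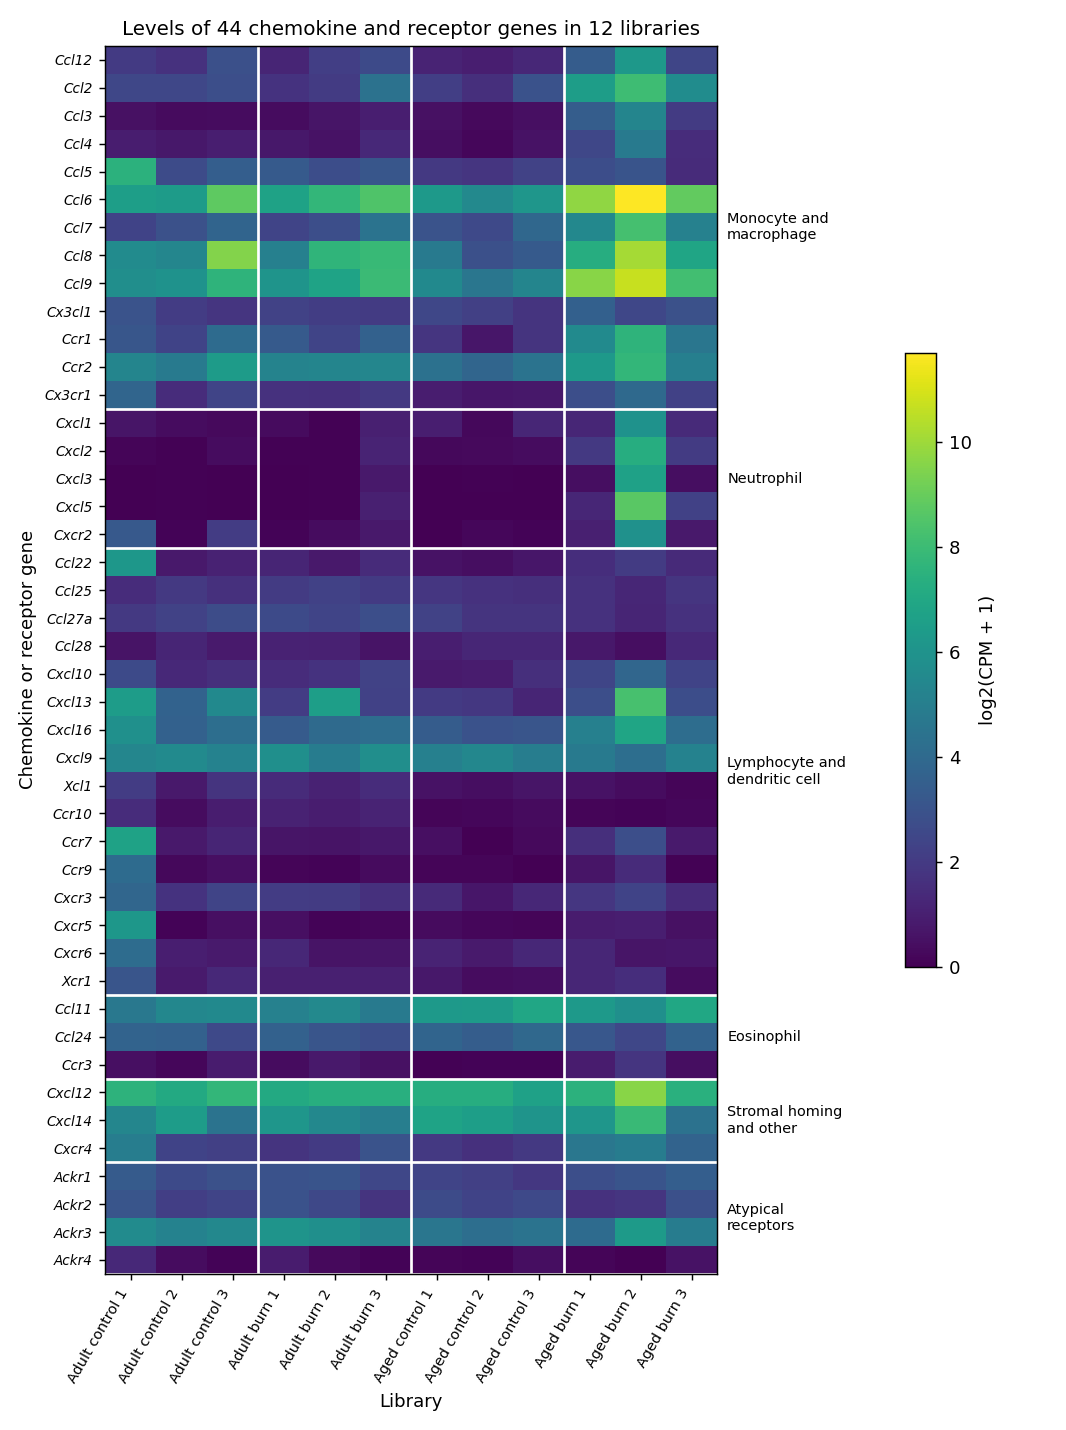
Level of 44 members tested in at least 1 comparison (rows, grouped by axis) in each of the 12 libraries (columns), as log2(CPM + 1). Monocyte and neutrophil genes are brightest in Aged burn 2, where Ccl6 reached 3335 CPM, and Ccr7, Cxcr5, Ccl22 and Ccl5 in Adult control 1.

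Burn in aged mice was compared first, on its 6 libraries. Of the 42 members tested, 21 rose and 0 fell (edgeR quasi-likelihood test, Benjamini-Hochberg adjusted p under 0.05), where 13.7% of all 15132 genes tested rose and 3.03% fell. Their median log2 fold change was 2.72, against -0.01 over all genes. The burned and control libraries did not overlap, with the burned ones higher, for 29 members (26.3% of all genes), and lower for 1, Ccl27a (24.3%), a skin-homing ligand for T cells. The 20 other members were too low to be tested, and genes such as Cxcl3, Cxcl5 and Ccr3 passed the filter through the burned group, so these counts describe the tested members only. Of 27 ligands tested 13 rose, and of 15 receptors 8 rose. With scaling by total count the median of all genes moved by 0.11 on the log2 scale and the calls over all genes went from 2075 up and 459 down to 2718 up and 183 down, while 22 members were called up and 0 down. The number of members called depended on single libraries. It was 9 without Aged burn 1, 0 without Aged control 3, and 1 (Cxcr4) when either of the other aged controls was left out. Calls over all genes fell as well, from 2534 to 872 without Aged burn 1 and 0 without Aged control 3. They were 575 without Aged control 1 and 410 without Aged control 2. Without Aged burn 2, 26 members were called, with all 21 among them, and 3265 genes over all.

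In the monocyte and macrophage axis, 12 of 14 members rose in burned aged mice (13.7% of all genes), and for 13 the burned libraries lay above the controls without overlap (26.3%). The median log2 fold change was 4.65. Ccl2, which draws Ccr2-bearing monocytes out of the blood, was at 3.57, 1.96 and 6.68 CPM in Aged control 1 to 3 and at 90.8, 266 and 50.4 CPM in Aged burn 1 to 3. Every burned library was above every control, the lowest of them by more than the whole range of the controls (log2 fold change 5.06 ± 0.81 SE, edgeR adjusted p = 0.0121). Ccl7, a second ligand of Ccr2, was at 7.02, 5.06 and 14.2 CPM in the controls and 43.3, 308 and 33.9 CPM after burn. Ccl8, a further protein of this family, went from 26.3, 6.18 and 9.08 CPM to 155, 1102 and 117 CPM, and Ccl12 from 1.21, 0.982 and 1.44 CPM to 9.64, 75.7 and 4.53 CPM. In all 3, Aged burn 2 was the highest library and Aged burn 3 the lowest of the burned ones. The log2 fold changes were 3.87 ± 1.0 SE, edgeR adjusted p = 0.045 for Ccl7, 5.05 ± 1.15 SE, edgeR adjusted p = 0.0328 for Ccl8 and 4.63 ± 1.13 SE, edgeR adjusted p = 0.0405 for Ccl12.

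Ccl3 and Ccl4, ligands released by activated macrophages, were barely present in aged controls. Ccl3 was at 0.432, 0.24 and 0.415 CPM there and at 9.87, 38.7 and 3.13 CPM after burn (log2 fold change 5.57 ± 1.03 SE, edgeR adjusted p = 0.0189). Ccl4 was at 0.345, 0.153 and 0.502 CPM and 4.7, 26 and 1.82 CPM (log2 fold change 5.02 ± 1.14 SE, edgeR adjusted p = 0.033). For both genes the burned libraries lay in the order Aged burn 2, 1 and 3, all above the controls. In Aged control 2 both were too low for the filter on low counts, so they passed it through the burned group. Their separation therefore supports nothing by itself. Ccl6 and Ccl9, ligands of Ccr1 in the mouse, were already abundant in controls. Ccl6 was at 80, 44 and 69.6 CPM in aged controls and 878, 3335 and 470.1 CPM after burn (log2 fold change 4.60 ± 0.82 SE, edgeR adjusted p = 0.0171). Ccl9 was at 46.6, 23.4 and 38.9 CPM and 794, 1679.6 and 289.7 CPM (log2 fold change 4.67 ± 0.71 SE, edgeR adjusted p = 0.0109). The lowest burned library was thus above the highest control for each of these genes. The ligands Ccl5 and Cx3cl1 were the members of the axis that did not pass. Ccl5, which also attracts T cells, was at 2.88, 2.53 and 3.88 CPM and 5.88, 7.16 and 1.73 CPM, and its groups overlapped (adjusted p = 0.352, edgeR). Cx3cl1, the membrane-bound ligand of Cx3cr1, was at 4.63, 3.64 and 2.38 CPM and 11.2, 4.69 and 6.51 CPM, without overlap but with an adjusted p of 0.106 (edgeR).

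Receptors of the axis rose with the ligands. Ccr2, the receptor of classical monocytes, was at 19.6, 12.9 and 21.3 CPM in aged controls and 78.5, 215 and 32.2 CPM after burn (log2 fold change 2.6 ± 0.67 SE, edgeR adjusted p = 0.0457). Ccr1, shared by monocytes and neutrophils, was at 2.48, 0.633 and 2.4 CPM and 47.1, 196 and 23.4 CPM (log2 fold change 5.60 ± 1.02 SE, edgeR adjusted p = 0.0179). No burned library overlapped the controls in either receptor, and Aged burn 3 lay nearest to them. Cx3cr1, the fractalkine receptor of patrolling monocytes and resident macrophages, was at 0.921, 0.633 and 0.698 CPM and 5.98, 15.1 and 3.77 CPM (log2 fold change 3.47 ± 0.58 SE, edgeR adjusted p = 0.0137). Ccr2 had a smaller change than Ccr1 and Cx3cr1, and 32.2 CPM in Aged burn 3 stood beside 21.3 CPM in Aged control 3. Of 8 macrophage markers, all with reads in every group, 6 rose with these genes, and their sum was 351.3 to 644.3 CPM in aged controls and 2376 to 12710 CPM in burned aged mice. The 6 monocyte markers, 3 of which rose, summed to 149.1 to 231.6 CPM and 496.5 to 2529 CPM. Their part in the chemokine result was not tested. Of the 12 calls in this axis, 7 were left without Aged burn 1 and 0 without any 1 of the aged controls. The median change of the 12 was 4.45 to 4.97 on the log2 scale in these fits, beside 4.67 with all libraries. All 12 changes stayed positive, which follows from the separation of the groups and supports nothing by itself. Without Aged burn 2 all 12 were called, together with Cx3cl1, and the median of the 12 was 3.35.

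**Figure D2:**
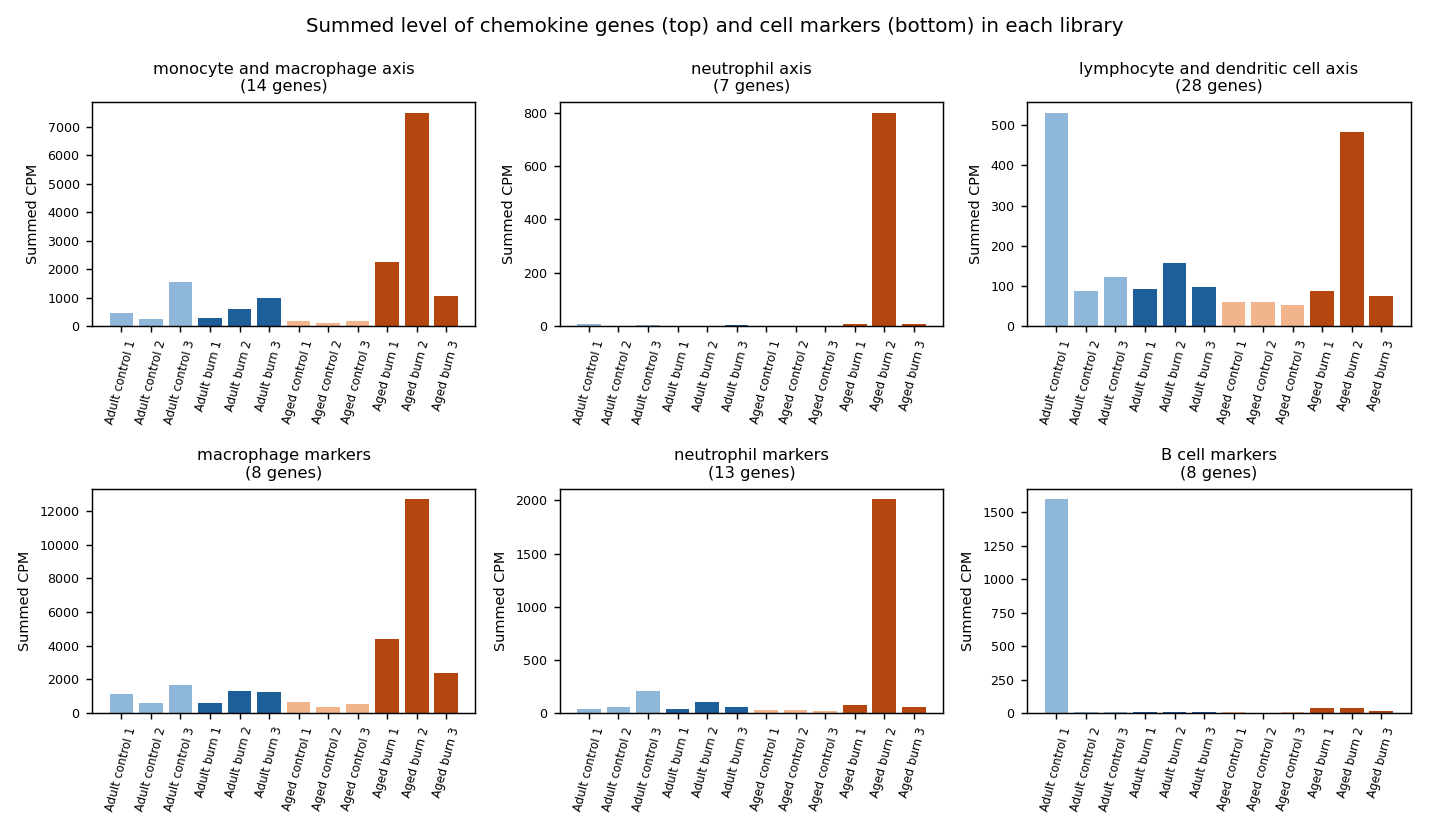
Summed CPM of the monocyte, neutrophil and lymphocyte axes (top, 14, 7 and 28 genes) and of macrophage, neutrophil and B cell markers (bottom) in each library, from 0 on a linear axis, with light bars for controls and dark bars for burns. Aged burn 2 carried 800.5 CPM of neutrophil axis genes against 9.805 CPM in the next burned aged library, and Adult control 1 carried 531.5 CPM of lymphocyte axis genes.

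The neutrophil axis holds the ligands Cxcl1, Cxcl2, Cxcl3, Cxcl5 and Cxcl15 and their receptors Cxcr1 and Cxcr2. Its sum was 0.6111 to 1.79 CPM in aged controls, 7.095 CPM in Aged burn 1, 9.805 CPM in Aged burn 3 and 800.5 CPM in Aged burn 2. Of 5 members tested, 2 rose (Cxcl2 and Cxcl5, where 13.7% of all genes rose), and for all 5 the burned libraries lay above the controls (26.3% of all genes). Each of these 5 was so low in at least 1 aged control that it passed the filter on low counts through the burned group. This separation therefore supports nothing by itself. Cxcl2, a fast-acting neutrophil attractant made by macrophages, was at 0.173, 0.218 and 0.306 CPM in aged controls and 2.88, 157 and 3.16 CPM after burn (log2 fold change 7.83 ± 2.04 SE, edgeR adjusted p = 0.0462). Cxcl5, often made by epithelial and stromal cells, was at 0, 0 and 0.0218 CPM and 1.39, 417 and 3.86 CPM, and Aged burn 2 held 98.8% of the group's sum. The 3 aged controls gave 1 read of Cxcl5 in all, so that its fitted log2 fold change of 13.64 ± 3.52 SE, edgeR adjusted p = 0.0454 depends on the prior count. The ratio of the pooled reads was 18000, with a counting interval of 3230 to 710000 at the 95% level. Cxcl3, a near relative of Cxcl2, was at 0.0288, 0.0437 and 0 CPM and 0.353, 104 and 0.335 CPM (3 control reads, pooled ratio 1480, interval 507 to 7190, adjusted p = 0.0706 by edgeR). Cxcl1 was at 1.01, 0.175 and 1.37 CPM and 1.39, 62.5 and 1.65 CPM, so that Aged burn 1 was 1.39 CPM beside 1.37 CPM in Aged control 3 (adjusted p = 0.103 by edgeR). Cxcr2, the main receptor of circulating neutrophils, was at 0.0288, 0.153 and 0.0873 CPM and 1.06, 59.4 and 0.754 CPM (log2 fold change 7.72 ± 2.19 SE, edgeR adjusted p = 0.0578). These 5 genes were thus high in a single library, and the other burned libraries stood at a few CPM or less.

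Of the 13 neutrophil markers, 12 were highest in the same library among the burned aged libraries, and 10 among all 12 libraries. The exceptions were Ltf, which was at 0.227, 0.208 and 0.14 CPM after burn, and Camp and Ngp, which were higher in Adult control 3. S100a8 and S100a9, cytosolic proteins of neutrophils, were at 559 and 884 CPM in Aged burn 2 and at most 5.5 CPM in the other burned aged libraries. All 13 markers had reads in the burned aged group, 10 had reads in aged controls, and Ly6g, Camp and Stfa2l1 were at 0 there. Ly6g, which defines mouse neutrophils, was at 2.5 CPM in Aged burn 2 and at 0 in the other burned aged libraries, and the granule gene Ngp of immature neutrophils was at 0.521 CPM and 0. The result is given without this library for that reason. Without Aged burn 2, Cxcl2, Cxcl3, Cxcl5 and Cxcr2 passed the test, with log2 fold changes of 3.67 (adjusted p = 0.00192), 3.69 (0.0179), 7.90 (0.00211) and 3.24 (0.00876, all edgeR), each smaller than with the library. The aged controls held 30, 3, 1 and 12 reads of these genes in all. The genes thus entered this fit through the burned group too, and these values support nothing by themselves. Cxcl1 did not pass, at 0.84 (adjusted p = 0.428, edgeR). The count of 2 became 1 (Cxcl5) without Aged burn 1, rose to 5 when Aged burn 3 was left out, and was 0 without any 1 of the aged controls.

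Promoters are shown for Cxcl1, Cxcl2 and Cxcl3, which lie in 1 gene cluster and were high together in Aged burn 2, and for the interferon-responsive ligand Cxcl10, as a contrast from the same chromosome. The promoter of Cxcl5, which lies in the same cluster and was the highest of these ligands in Aged burn 2, was not analysed here. Each sequence is the 250 bases before the gene's start in RefSeq (GRCm38.p6, the build of mm10), written 5′ to 3′ on the gene's own strand. Capitals mark matches to the consensus of NF-kappaB, the transcription factor of inflammatory signalling, on either strand and to the TATA box TATAAA. They stand at chr5:90890995-90891244 (+) for Cxcl1, chr5:90903649-90903898 (+) for Cxcl2, chr5:90785851-90786100 (+) for Cxcl3 and chr5:92348890-92349139 (-) for Cxcl10.
Cxcl1: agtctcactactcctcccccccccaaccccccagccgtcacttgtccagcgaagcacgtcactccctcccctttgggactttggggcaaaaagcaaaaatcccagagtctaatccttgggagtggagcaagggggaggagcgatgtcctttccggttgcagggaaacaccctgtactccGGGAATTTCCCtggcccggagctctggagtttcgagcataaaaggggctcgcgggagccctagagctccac
Cxcl2: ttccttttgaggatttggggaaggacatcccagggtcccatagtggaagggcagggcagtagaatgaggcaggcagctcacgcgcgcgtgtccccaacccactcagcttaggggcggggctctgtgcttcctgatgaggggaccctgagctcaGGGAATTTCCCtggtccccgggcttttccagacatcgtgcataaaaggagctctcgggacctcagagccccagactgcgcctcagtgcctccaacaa
Cxcl3: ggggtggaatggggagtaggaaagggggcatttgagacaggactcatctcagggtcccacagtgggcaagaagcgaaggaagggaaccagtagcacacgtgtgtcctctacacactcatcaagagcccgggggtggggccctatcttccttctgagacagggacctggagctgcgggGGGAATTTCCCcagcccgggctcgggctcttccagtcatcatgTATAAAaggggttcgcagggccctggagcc
Cxcl10: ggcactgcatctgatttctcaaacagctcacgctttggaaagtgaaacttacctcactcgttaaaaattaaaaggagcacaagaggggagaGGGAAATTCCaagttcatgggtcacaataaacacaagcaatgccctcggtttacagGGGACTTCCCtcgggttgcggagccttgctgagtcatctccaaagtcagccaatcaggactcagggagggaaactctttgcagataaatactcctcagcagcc
The run GGGAATTTCCC, 11 bases long, is the same in Cxcl1, Cxcl2 and Cxcl3, where the consensus matches on both strands in overlap. In Cxcl10 the matches are GGGAAATTCC and GGGACTTCCC. Searched over the 250 bases on both strands, 9 of the 47 members with a promoter in the table held the consensus (19.1%: Ackr2, Ccl20, Ccl9, Ccr3, Ccr6, Cxcl1, Cxcl10, Cxcl2 and Cxcl3), against 4.46% of 27025 genes. It was found in 4 of 14 members that rose in burned aged mice, in 3 of 17 that were tested without passing and in 2 of 16 that were not tested. TATAAA was found in 31.9% of members and 14.3% of all genes. GAGGAAGT, a pattern of PU.1, stood in 2.13% and 2.79%, and TTTCNNTTT, a pattern of interferon regulatory factors, in 12.8% and 10.8%. These matches describe letters in the window and were set beside no binding data.

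**Figure D3:**
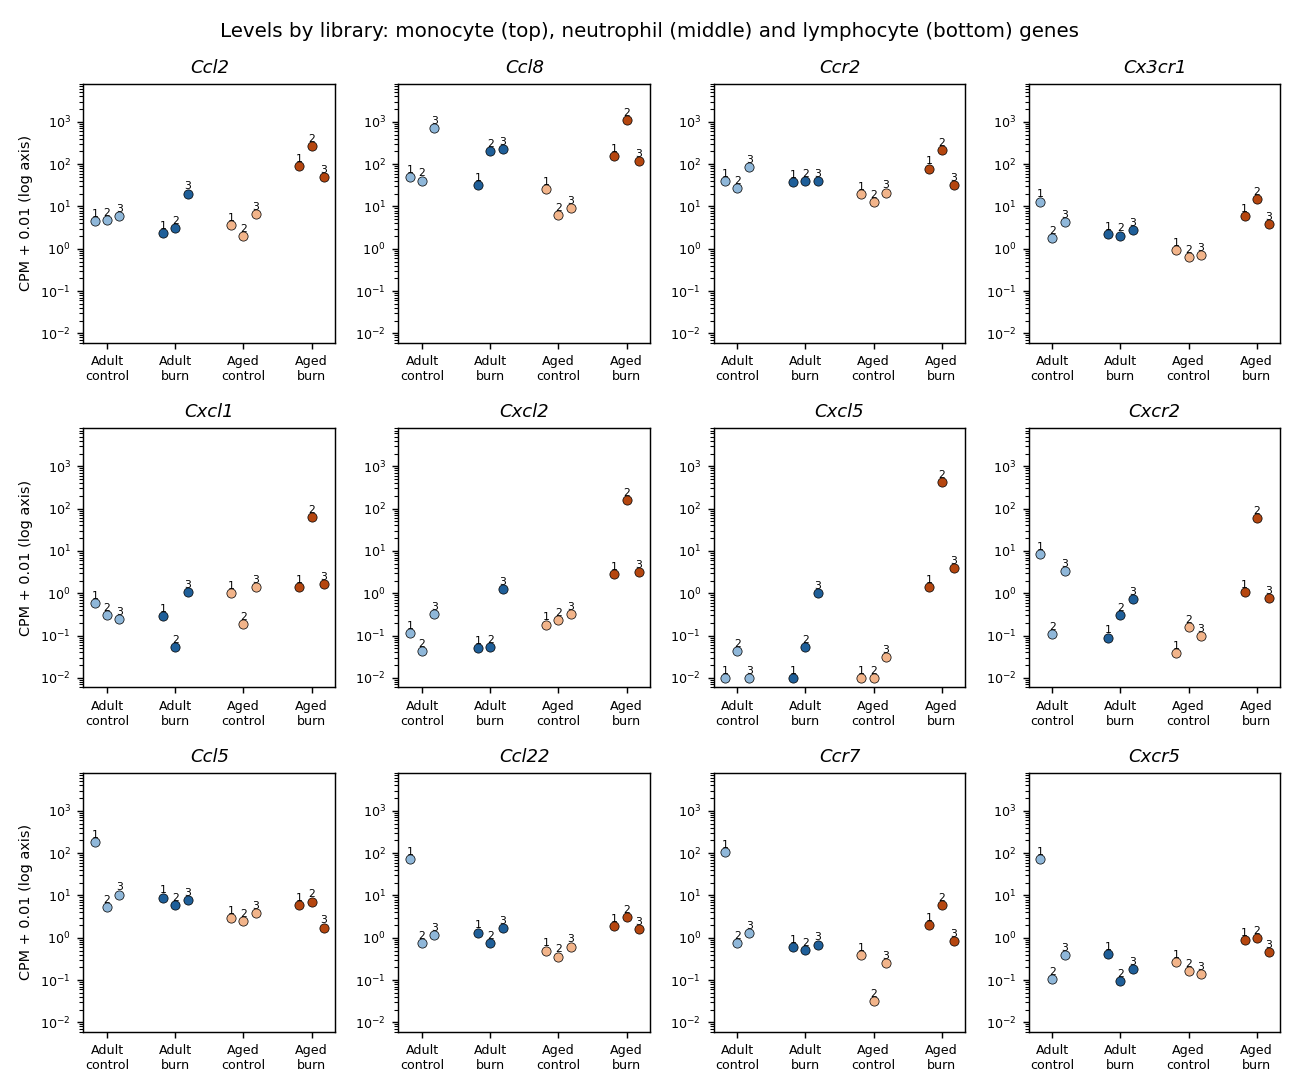
Levels of 12 genes in the 12 libraries (points numbered by replicate) as CPM + 0.01 on a log axis, with monocyte genes in the top row, neutrophil genes in the middle row and lymphocyte genes in the bottom row. Ccl2, Ccl8, Ccr2 and Cx3cr1 are above the aged controls in all 3 burned aged libraries, whereas Cxcl1 to Cxcr2 peak in Aged burn 2 and Ccl5, Ccl22, Ccr7 and Cxcr5 in Adult control 1.

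In the lymphocyte and dendritic cell axis, 4 of 14 members tested rose in burned aged mice (of 28 in all), where 13.7% of all genes did. The median log2 fold change was 1.29. For 7 the burned libraries lay above the controls (26.3% of all genes). Cxcl16, a membrane-anchored ligand of Cxcr6 made by macrophages, was at 9.53, 6.64 and 7.46 CPM in aged controls and 33.2, 117 and 17 CPM after burn (log2 fold change 2.83 ± 0.71 SE, edgeR adjusted p = 0.0429). Cxcl10, an interferon-induced ligand of Cxcr3, was at 0.806, 0.829 and 2.03 CPM and 4.49, 13.4 and 4.11 CPM (log2 fold change 2.58 ± 0.63 SE, edgeR adjusted p = 0.0401). Ccl22, a ligand of Ccr4 from dendritic cells and macrophages, was at 0.489, 0.349 and 0.611 CPM and 1.87, 3.07 and 1.62 CPM (log2 fold change 2.17 ± 0.39 SE, edgeR adjusted p = 0.0171). The groups did not overlap for these ligands. Cxcr5, the follicle-homing receptor of B cells, was at 0.259, 0.153 and 0.131 CPM and 0.858, 0.964 and 0.447 CPM (log2 fold change 2.07 ± 0.47 SE, edgeR adjusted p = 0.0323). These Cxcr5 levels stayed below 1 CPM. With 9, 7 and 6 reads in the aged controls, the gene passed the filter on low counts through the burned group. The separation of Cxcr5 therefore supports nothing by itself. Its ligand Cxcl13 was at 2.94, 2.73 and 1.33 CPM and 5.96, 312 and 5.7 CPM, with Aged burn 2 far above the rest (log2 fold change 5.54 ± 1.78 SE, edgeR adjusted p = 0.077). Without Aged burn 2 the change in Cxcl13 was 1.33 and passed (adjusted p = 0.0361, edgeR). Cxcl9, another interferon-induced ligand of Cxcr3, was at 33.3, 41.3 and 30.5 CPM and 26.1, 17.6 and 35.8 CPM, and its groups overlapped (log2 fold change -0.40 ± 0.27 SE, edgeR adjusted p = 0.293). No burned library was above the highest control in Cxcl9, and Aged burn 2 was the lowest. Ccr7, which guides dendritic cells and lymphocytes to lymph nodes, was at 0.374, 0.0218 and 0.24 CPM and 2.02, 6.04 and 0.81 CPM and narrowly missed the threshold (log2 fold change 3.83 ± 1.04 SE, edgeR adjusted p = 0.0517). Ccr9, the receptor of gut-homing T cells, was at 0.115, 0.109 and 0.0218 CPM and 0.606, 1.69 and 0.0559 CPM and was not tested within aged mice. The 8 B cell markers summed to 3.645 to 5.304 CPM in aged controls and 16.31 to 39.04 CPM after burn, with 3 of 8 called up. The 9 T cell markers, of which 1 rose, stood at 4.976 to 10.06 CPM in aged controls and 7.207 to 22.11 CPM after burn. Their part was not tested. The count of 4 was 0 without Aged burn 1 or any 1 of the aged controls, 6 without Aged burn 2 and 8 without Aged burn 3.

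The eosinophil, stromal and atypical groups each had 1 member called up of 3 tested, where 13.7% of all genes rose. Ccl11 (eotaxin) draws eosinophils through Ccr3 and was at 77.9, 81.5 and 121 CPM in aged controls and 75.9, 56 and 123 CPM after burn (log2 fold change -0.14 ± 0.32 SE, edgeR adjusted p = 0.762). Ccl24, a second eotaxin, was at 12.7, 9.84 and 14.3 CPM and 8.15, 4.58 and 11.9 CPM (log2 fold change -0.58 ± 0.35 SE, edgeR adjusted p = 0.256). Both ligands had overlapping groups, and Aged burn 2 was their lowest burned library. Their receptor Ccr3 was at 0.0576, 0.0873 and 0.0655 CPM and 0.858, 2.53 and 0.335 CPM (log2 fold change 4.08 ± 0.87 SE, edgeR adjusted p = 0.0279, from 9 control reads and 143 burn reads). Cxcl12, a homing factor made by stromal cells, was at 158, 154 and 102 CPM and 181, 791 and 169.5 CPM (log2 fold change 1.47 ± 0.64 SE, edgeR adjusted p = 0.14), and without Aged burn 2 the change was 0.35 (adjusted p = 0.256, edgeR). Its receptor Cxcr4, present on most leukocytes, was at 2.82, 2.12 and 2.86 CPM and 23.6, 29.5 and 12 CPM (log2 fold change 3.07 ± 0.36 SE, edgeR adjusted p = 0.00635). Cxcr4 had the smallest adjusted p of the 42 members, and its lowest burned library was above its highest control by several times the control range. Cxcl14, a ligand expressed by fibroblasts, was at 109.7, 92.4 and 65.7 CPM and 70.7, 239.9 and 20.6 CPM, with burned libraries both above and below all controls (log2 fold change 0.31 ± 0.78 SE, edgeR adjusted p = 0.78).

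Among the atypical receptors, Ackr1, carried by the endothelium of venules, was at 4.26, 3.64 and 2.68 CPM in aged controls and 6.06, 7.29 and 10.4 CPM after burn (log2 fold change 1.17 ± 0.29 SE, edgeR adjusted p = 0.0421). It differed from most members in that Aged burn 3, not Aged burn 2, was highest. The 6 endothelial markers summed to 321.3 to 448.3 CPM in aged controls and 378.5 to 584.8 CPM in burned aged mice, again highest in Aged burn 3, and their part was not tested. Ackr3, a scavenger of Cxcl12, was at 23.1, 17.6 and 21.2 CPM and 16.2, 83.1 and 29.6 CPM (log2 fold change 1.06 ± 0.56 SE, edgeR adjusted p = 0.202). Ackr2, a scavenger of inflammatory CC chemokines, was at 5.38, 4.13 and 4.91 CPM and 2.22, 2.45 and 6.15 CPM (log2 fold change -0.41 ± 0.43 SE, edgeR adjusted p = 0.486). The groups of both overlapped. Without Aged burn 3, Ackr2 fell by 1.04 on the log2 scale (adjusted p = 0.0238, edgeR). Calls down over all genes then went from 459 to 2136, and Ackr2 was called in no other fit. When libraries were left out in turn, the calls of Ccr3 and Ackr1 were lost without Aged burn 1 and without any 1 of the aged controls, and that of Cxcr4 only without Aged control 3.

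Aged burn 2 was the highest burned aged library for 31 of the 42 members tested, Aged burn 1 for 4 and Aged burn 3 for 7. Leaving it out kept all 21 calls. The change in Ccl2 went from 5.06 to 4.11 (adjusted p = 0.00226, edgeR), that in Ccr1 from 5.60 to 4.28 (0.0027), that in Cx3cr1 from 3.47 to 2.71 (0.00237) and that in Cxcr4 from 3.07 to 2.78 (0.00215). The changes in Cxcl2, Cxcl3, Cxcl5 and Cxcr2, given above with and without the library, shrank by more than any of these.

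**Figure D4:**
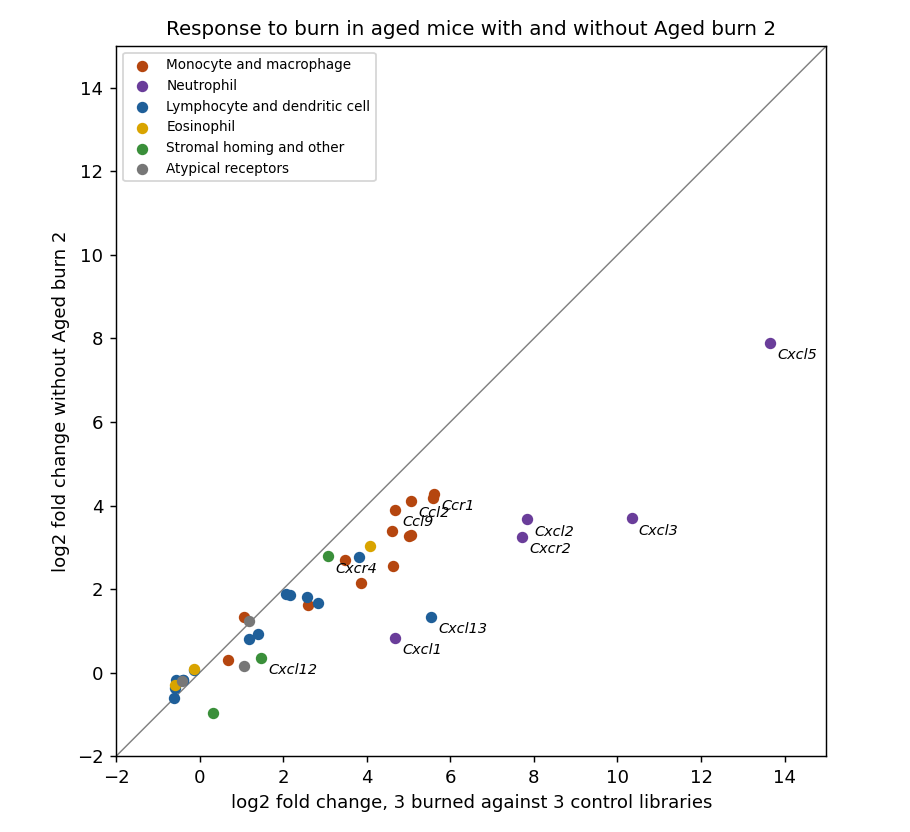
Log2 fold change of burn in aged mice for the members tested in both fits, with all 6 libraries (horizontal axis) and without Aged burn 2 (vertical axis), coloured by axis, with the line of equal values. Cxcl3 moves from 10.34 to 3.69 and Cxcl13 from 5.54 to 1.33, whereas Cxcr4 stays near the line (3.07 and 2.78).

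Burn in adult mice changed no member past the threshold. Of the 38 members tested, 0 rose and 0 fell (edgeR), where 0.0411% of 14600 genes rose and 0% fell. The median log2 fold change was -0.18 (-0.04 over all genes), and 14 of 38 values were positive. Only Ccl25, a ligand of Ccr9, had all burned libraries above all controls (6.77% of all genes did), and only Ccr7 had all below (3.42%). At an unadjusted p under 0.05 there were 4 members, Ccl22, Ccl5, Ccr7 and Cxcr2, all lower after burn and each with an adjusted p of 0.788 (edgeR). Over all genes 4.37% were under that p, and 1.58% were under it and lower. DESeq2 also called 0 members (0.379% of its 16625 genes), with 2 at an unadjusted p under 0.05 (5.97% of genes). Adult control 1 was the highest library for each of the 4, and without it 0 members had an unadjusted p under 0.05 and 20 of 38 values were positive.

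The monocyte genes of adult mice varied between libraries of 1 group. Ccl2 was at 4.58, 4.68 and 5.91 CPM in adult controls and 2.32, 3.1 and 20.2 CPM after burn (log2 fold change 0.75 ± 0.81 SE, edgeR adjusted p = 0.816). Adult burn 3 alone was above the controls, and without it the change turned to -0.90. Ccr2 was at 39.6, 27.3 and 85 CPM and 37, 39.4 and 40.7 CPM (log2 fold change -0.38 ± 0.40 SE, edgeR adjusted p = 0.81), and without Adult control 3 the change was 0.22. Cx3cr1 was at 13, 1.77 and 4.29 CPM and 2.2, 2.04 and 2.81 CPM (log2 fold change -1.45 ± 0.69 SE, edgeR adjusted p = 0.788). The burned levels of Ccr2 and Cx3cr1 were within a narrow band, and the spread lay in the controls. Adult control 3 was the highest control for most monocyte ligands, with Ccl8 at 48.6, 40.9 and 729 CPM in the 3 controls and 32.8, 203 and 233 CPM after burn, and Ccl6 at 93.5, 85.4 and 447 and 107, 212 and 357 CPM. Ccl9 was at 53.3, 62.4 and 197 and 65.6, 111 and 249 CPM and Ccl12 at 3.03, 2.16 and 6.26 and 1.28, 3.49 and 5.15 CPM. In each of these genes Adult control 3 lay above at least 1 burned library, so that the groups overlapped. The same library held S100a8 at 63.4 CPM and S100a9 at 70.2 CPM and the highest macrophage marker sum of the adult controls (1693 CPM), whose part was not tested. Ccl7 was at 4.17, 6.42 and 12.5 and 4.2, 5.95 and 20.6 CPM, Ccl3 at 0.44, 0.258 and 0.309 and 0.32, 0.595 and 0.979 CPM and Ccl4 at 0.906, 0.709 and 1 and 0.68, 0.468 and 1.57 CPM. For these 3 genes Adult burn 3 was the highest adult library. Ccr1 was at 7.84, 4.06 and 15.9 and 8.84, 4.29 and 11.6 CPM, again with Adult control 3 highest.

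Neutrophil ligands were near the limit of detection in adult mice. Cxcl2 was at 0.104, 0.0322 and 0.309 CPM in controls and 0.04, 0.0425 and 1.23 CPM after burn, Cxcl3 at 0.0259, 0.0645 and 0 and 0, 0.0425 and 0.766 CPM, and Cxcl5 at 0, 0.0322 and 0 and 0, 0.0425 and 1.02 CPM. Adult burn 3 was the highest adult library for each, and none of the ligands could be tested within adults. Cxcr2 was at 8.49, 0.0967 and 3.28 CPM and 0.08, 0.298 and 0.723 CPM (log2 fold change -3.44 ± 1.41 SE, edgeR adjusted p = 0.788). In Adult control 3 it stood beside raised S100a8, but in Adult control 1, its highest adult library, S100a8 and S100a9 were at 0.518 and 0.466 CPM.

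Adult control 1 was the highest adult library for 9 of the 14 lymphocyte axis members tested in adults, the others being Cxcl9, Ccl25, Ccl27a, Ccl28 and Cxcl13. Ccr7 was at 105, 0.742 and 1.31 CPM in the 3 controls and 0.6, 0.51 and 0.681 CPM after burn (log2 fold change -5.91 ± 2.03 SE, edgeR adjusted p = 0.788), and without Adult control 1 the change was -0.79. Cxcr5 was at 71.3, 0.0967 and 0.386 CPM and 0.4, 0.085 and 0.17 CPM, so that 99.3% of the control sum came from that library. Ccr9 was at 16.2, 0.193 and 0.386 and 0.12, 0.085 and 0.255 CPM, Ccl22 at 71.3, 0.742 and 1.16 and 1.32, 0.723 and 1.7 CPM and Ccl5 at 185, 5.32 and 10.5 and 8.92, 5.82 and 7.75 CPM. In all of these the library was at least 17.7 times its nearest fellow control. Ccr6, carried by B cells and some T cells, and Cxcr6, carried by T cells resident in tissue, were at 23.6, 0.0967 and 0.116 CPM and 16.6, 0.967 and 0.773 CPM in the controls. Cxcl16 was at 56.9, 11.3 and 17.6 and 9.4, 15.7 and 17.1 CPM, Cxcl10 at 5.2, 1.55 and 2.01 and 1.8, 2.3 and 4 CPM and Cxcr4 at 29.7, 4.06 and 3.59 and 2.44, 2.93 and 7.02 CPM, each again highest in Adult control 1. Cxcl13 was high in Adult control 1 and also elsewhere, at 86.4, 12 and 45.6 CPM and 3.2, 93 and 3.74 CPM (log2 fold change -0.54 ± 1.35 SE, edgeR adjusted p = 0.911), and the change was 0.20 without Adult control 1 and 0.0058 without Adult burn 1.

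Most markers of lymphoid tissue were highest in that library, but Ccl21a and Lyve1 were not. The 9 T cell markers summed to 782.9 CPM in Adult control 1 and to at most 22.11 CPM elsewhere, and the 7 measured markers of lymph node stroma and high endothelium to 267.5 CPM against at most 109.7 CPM. Most of the 267.5 CPM was Cr2, which B cells also carry (157 CPM), and nearly all of the 109.7 CPM, in Aged burn 2, was Lyve1 (109 CPM). Glycam1, a mucin of lymph node venules, reached 58.7 CPM in this library, with no other library above 0.156 CPM. Chst4 and Madcam1, also on this list, were at 3.36 and 4.09 CPM there and at most at 0.16 and 0.638 CPM elsewhere. Scaled by total count, Prox1 was at 1.3 CPM there and at most at 0.245 CPM elsewhere. Ccl21a, the Ccr7 ligand of lymph node stroma, was at 0 in Adult control 1, and Ccl19, the other Ccr7 ligand, was at 1.29 CPM. The Ccl21 genes are near-identical copies (71.7% of the 50-base words of Ccl21b occur in Ccl21a), and reads shared between copies may not have been counted, so their levels are uncertain. The same holds for Ccl27b, with 61.4% of its words in Ccl27a. The adipocyte markers of Adult control 1 summed to 19820 CPM, the lowest of the controls.

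In the remaining groups no adult change passed. Ccl11 was at 24.4, 41.9 and 46.1 CPM in adult controls and 34.8, 44.3 and 27.3 CPM after burn, Ccl24 at 12.3, 11.3 and 4.98 and 11.4, 7.44 and 6.09 CPM and Ccr3 at 0.388, 0.161 and 0.85 and 0.32, 0.765 and 0.426 CPM. Cxcl12 was at 188, 139 and 215 CPM and 138, 159 and 166 CPM (log2 fold change -0.23 ± 0.20 SE, edgeR adjusted p = 0.789). Cxcl14 was at 40.3, 87.9 and 21.1 and 70, 43.3 and 30.9 CPM, and Cxcl9 at 40.9, 46.9 and 34.9 and 56.4, 29.6 and 53.4 CPM. The groups overlapped in each of these genes. Ackr1 was at 9.42, 5.13 and 6.49 and 6.8, 7.14 and 4.55 CPM, Ackr2 at 7.53, 3.51 and 4.33 and 6.76, 4.76 and 2.43 CPM and Ackr3 at 49.3, 35.7 and 42.8 and 66.5, 55 and 37.2 CPM, also with overlap.

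**Figure D5:**
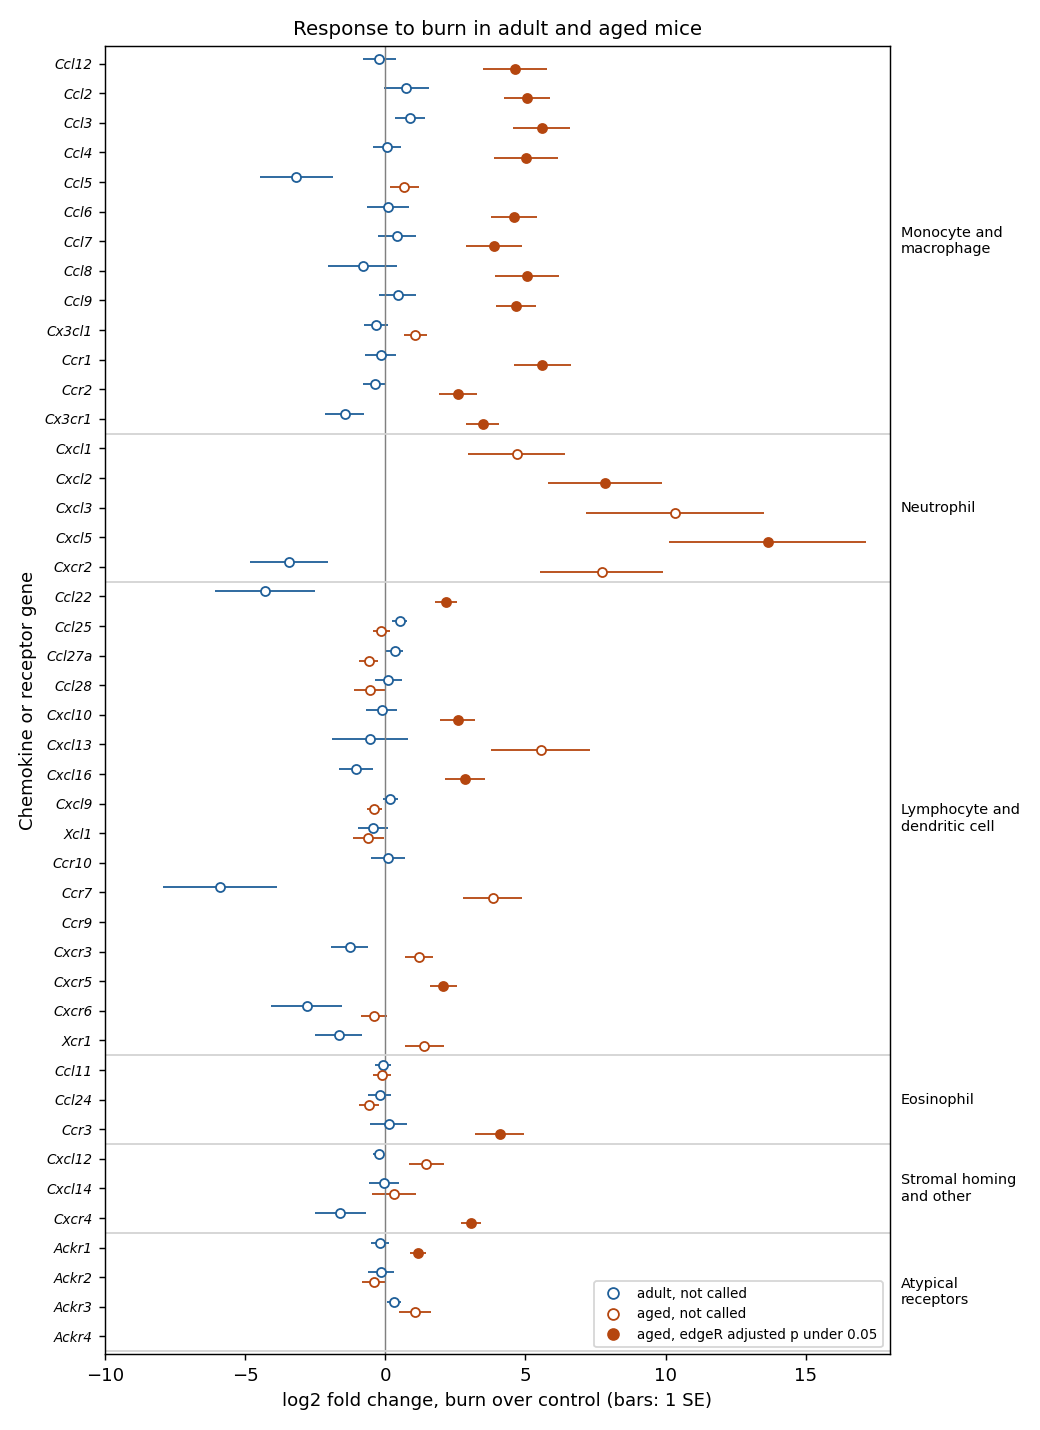
Log2 fold change of burn over control, with bars of 1 SE, in adult (blue) and aged mice (orange) for 44 members, where filled points have an edgeR adjusted p under 0.05 and members not tested in an age have no point. The 20 filled points are all positive and all from aged mice, and the values furthest below 0 in adult mice are those of Ccr7 (-5.91) and Ccl22 (-4.30).

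How the response to burn differed with age (aged minus adult) was tested over all 12 libraries. Age goes with burn size and with the count table here, so these cannot be told apart. Of 45 members tested, 16 had a larger response in aged mice and 0 a smaller one (edgeR), where 9.64% of 15553 genes were called up and 2.22% down. With scaling by total count the split over all genes moved from 1500 up and 345 down to 2675 up and 169 down, the median of all genes moved by 0.32 on the log2 scale, and 21 members were called, all up. Of the 16, 10 belonged to the monocyte and macrophage axis. The difference was 5.76 ± 1.19 SE, edgeR adjusted p = 0.0207 for Ccr1 and 4.90 ± 0.98 SE, edgeR adjusted p = 0.0191 for Cx3cr1. It was 4.30 ± 1.20 SE, edgeR adjusted p = 0.0442 for Ccl2 and 2.97 ± 0.84 SE, edgeR adjusted p = 0.0452 for Ccr2. These differences came with a rise in aged mice and with an adult change that did not pass in either direction. The difference was 9.72 ± 2.46 SE, edgeR adjusted p = 0.0342 for Ccr7 and 11.15 ± 2.73 SE, edgeR adjusted p = 0.0313 for Cxcr2. Both held a negative adult value, with the highest control level in Adult control 1 and, for Cxcr2, the next in Adult control 3. Cx3cr1 likewise had a negative adult value (-1.45) and its highest control level in Adult control 1, without which its difference was 3.84. The adult values of Ccr1 (-0.17) and Ccr2 (-0.38) were negative as well. The difference did not pass for Cxcl2 (6.22 ± 2.78 SE, edgeR adjusted p = 0.14), Cxcl12 (1.69 ± 0.72 SE, edgeR adjusted p = 0.125) or Cxcl13 (6.06 ± 2.38 SE, edgeR adjusted p = 0.104).

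These calls depended on single libraries. Of the 16, 6 were left without Adult control 1 (Ccl6, Ccl9, Ccr1, Cx3cr1 and Cxcr4 among them) and 4 without Aged burn 2 (Ccl3, Ccr1 and Cx3cr1 among them). There were 6 without Aged burn 1 and 8 without Adult burn 3, and 24 without Adult control 2. Calls over all genes moved as well, from 1845 to 1245, 811, 719, 915 and 2897 in the same order. Leaving out Adult burn 1, Adult burn 2 or any 1 of the aged controls gave 0 members. Over all genes, 354 were then called when Aged control 1 was left out and 0 in the rest of these fits. Without Adult control 1 the difference in Ccr7 was 4.60 (adjusted p = 0.0511) and that in Ccr9 4.13 (0.12), both far smaller than with the library. That in Cxcr2 was 9.91 (0.0568), that in Ccl2 4.37 (0.0665) and that in Ccr2 3.13 (0.0614, all edgeR), so that for Ccl2 and Ccr2 the call was lost at a difference no smaller than before. Cxcr4 was still called, at 2.96 in place of 4.66. For the 10 monocyte members the difference stayed positive whichever library was left out. They were taken because they were called in these same libraries, so this supports nothing by itself. The comparison at matched burn size was not made in this design.

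Aged and adult controls were compared in the same 12-library model. Of 45 members, 0 were called (edgeR), where 0.424% of 15553 genes were, 0.238% (37) up and 0.186% (29) down (19 and 24 genes with scaling by total count). At an unadjusted p under 0.05 there were 23 members, where 26.3% of all genes were under it (15.2% lower in aged controls). DESeq2 called 15 of 38, 14 lower in aged controls and 1 higher, where 7.16% of its 16545 genes were lower and 5.83% higher. The aged controls lay below all adult controls for 23 members (15.6% of all genes) and above for 1, Ccl11 (17.4%). Ccl11 was at 24.4, 41.9 and 46.1 CPM in adult and 77.9, 81.5 and 121 CPM in aged controls (log2 difference 1.32 ± 0.33 SE, edgeR adjusted p = 0.0829). Cx3cr1 was at 13, 1.77 and 4.29 CPM in adult and 0.921, 0.633 and 0.698 CPM in aged controls (log2 difference -3.09 ± 0.71 SE, edgeR adjusted p = 0.0726). Neither group overlapped the other in these genes, yet the adjusted p of both stayed above the threshold. For the other genes compared whatever the outcome, the log2 differences were -0.31 for Ccl2, -1.50 for Ccr2, 0.73 for Cxcl2, -5.36 for Cxcr2, -0.39 for Cxcl12, -4.37 for Cxcl13 and -7.42 for Ccr7. Adult control 1 held 98.1% of the adult control sum of Ccr7, and without it the differences were -2.30 for Ccr7, -4.12 for Cxcr2 and -3.64 for Cxcl13. Without Adult control 2, 15 members were called, and without Aged burn 2, which enters only the shared spread, 3 (Ccl11, Cx3cr1 and Cxcr2). Over all genes, 760 were then called up and 1251 down without Adult control 2, and 498 up and 291 down without Aged burn 2. Age and count table cannot be told apart.

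Genes that act with the receptors were followed as lists. Of 14 genes of receptor signalling in leukocytes, 10 rose and 0 fell in burned aged mice (13.7% and 3.03% of all genes), with a median log2 fold change of 2.13. In adults 0 were called (0.0411% of all genes). The smallest p of this list in burned aged mice belonged to Dock2, an exchange factor that activates Rac in migrating leukocytes, and to Pik3r5, the regulatory subunit of PI3-kinase gamma. Dock2 was at 14.1, 8.8 and 14.9 CPM in aged controls and 127, 169 and 80.9 CPM after burn (log2 fold change 3.32 ± 0.34 SE, edgeR adjusted p = 0.00565). Pik3r5 was at 9.12, 4.98 and 6.22 CPM and 111, 191 and 63.1 CPM (log2 fold change 4.17 ± 0.48 SE, edgeR adjusted p = 0.0062). In both, all burned libraries were several times above the controls. Of 12 leukocyte adhesion partners, 10 rose and 0 fell in aged mice (median 2.62), and 0 were called in adults, beside the same shares over all genes. Itgb7, an integrin chain of homing lymphocytes, was at 4.61, 4.15 and 4.17 CPM and 27.1, 27 and 16.1 CPM (log2 fold change 2.44 ± 0.24 SE, edgeR adjusted p = 0.00565). Its partner Itga4, which binds Vcam1 on endothelium, was at 5.96, 5.17 and 6.83 CPM and 43.1, 63.8 and 26.9 CPM (log2 fold change 2.90 ± 0.33 SE, edgeR adjusted p = 0.0062). Without Aged burn 1 the counts of 10 became 6 for signalling and 5 for adhesion, without Aged control 1 they were 5 and 4, without Aged control 2 they were 3 and 4, and without Aged control 3 both were 0. Calls over all genes went from 2534 to 872, 575, 410 and 0 in the same order. In Adult control 1 these genes stood at 167 CPM (Dock2), 43.7 CPM (Pik3r5), 172 CPM (Itgb7) and 108 CPM (Itga4), above every other adult library. Of 6 chemokine-related genes outside the naming rule, 0 were called in either age. Ccrl2, a non-signalling receptor that presents chemerin, was at 3.45, 3.03 and 3.1 CPM in aged controls and 5.3, 8.31 and 4.83 CPM after burn (adjusted p = 0.0575, edgeR). Pf4, a platelet and megakaryocyte chemokine also named Cxcl4, was at 44.2, 28.9 and 41.9 CPM and 107, 764 and 68.8 CPM (adjusted p = 0.0718, edgeR). Every burned library was above every aged control in Pf4, and Aged burn 2 was far above the rest. Of the other platelet markers, Ppbp was at 3.51, 320 and 4.8 CPM in Aged burn 1 to 3, scaled by total count. Itga2b, Gp9 and Gp1bb were at 2.76, 0.287 and 0.86 CPM in Aged burn 2, and their part was not tested. Of these 6 chemokine-related genes, 1 was called without Aged burn 2 and 3 without Aged burn 3, where 3265 and 5743 genes over all were called.

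Many members lie in clusters of neighbouring genes, and neighbours did not all move alike in burned aged mice. On chromosome 11, the cluster at chr11:82035577-82179812 (mm10) holds Ccl2, Ccl7, Ccl11, Ccl12, Ccl8 and Ccl1, of which 4 of 5 tested rose and Ccl11 did not. The cluster at chr11:83525778-83664683 holds Ccl5, Ccl9, Ccl6, Ccl3 and Ccl4, of which 4 of 5 rose and Ccl5 did not. Among the tested genes of these clusters Ccl11 and Ccl5 had overlapping groups and the others were separated. Ccl1, not tested, also overlapped. The cluster at chr5:90759298-90905938 holds Cxcl5, Cxcl3, Cxcl15, Cxcl1 and Cxcl2, of which 2 of 4 tested rose. Of the 50-base words of Cxcl2 transcripts, 5.84% occur in its neighbour Cxcl3.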

How the data were processed

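Polyadenylated RNA of mouse adipose tissue was sequenced with a directional kit, per the labels' protocols. Per the submitters' processing notes, FastQC, MultiQC, cutadapt, HISAT2 and featureCounts were used with mm10. No version, annotation or strand setting is given in the sources used here, so overlapping genes may share reads. The authors deposited raw counts per gene in separate tables for the 2 ages. Symbols, gene types and promoters came from RefSeq (GRCm38.p6), and exon lengths and shared 50-base words from GENCODE.

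Counts were tested with edgeR 4.0.16 in R 4.3.3 (filterByExpr, TMM, quasi-likelihood F test, Benjamini-Hochberg over all genes tested, threshold 0.05). Within each age 6 libraries were fitted, and all 12 for the difference between ages and for controls. SE is the absolute log2 fold change over the square root of F. The members, lists and named genes were chosen with earlier results of these data known. Named with all 12 values are members called in any comparison and the 3 most abundant of each axis, with fold changes in any case for Ccl2, Ccr2, Cx3cr1, Cxcl2, Cxcr2, Cxcl12, Cxcl13 and Ccr7. Of the lists of partner genes, the 2 with the smallest p in burned aged mice are named. Ccl5, Ccl25, Ccl27a, Cx3cl1, Cxcl1, Ccr6 and Cxcr6, the promoters and the marker genes were picked after their values were seen. Ccl19-ps1 and Cxcl11 are not protein coding in the table used and were left out. For 1 member, which the counts include, results are not reported here. A planned comparison of protein sequences was not made. On simulated counts, 51 of 100 genes changed 4-fold and 2 of 100 changed 2-fold were recovered for burn in adults over 14600 genes, and 62 and 7 for burn in aged mice over 15132. For the difference the numbers were 29 and 3, and for controls 70 and 19, over 15553 genes. Alternatives were other scalings and filters, DESeq2 1.42.0, a replicate block, all 12 libraries in each fit and each library left out. Counting intervals cover counting error only.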

Additional observations from a re-analysis of the deposited data

Results flagged for a closer look

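For the 15 members given here (of 16 called) the burn response differed between aged and adult mice by the test of the difference itself (edgeR, 12 libraries, 3 per group), each time with the larger value in aged mice. The log2 differences, aged minus adult, were 4.83 for Ccl12, 4.30 for Ccl2, 4.68 for Ccl3, 4.95 for Ccl4, 4.49 for Ccl6 and 4.22 for Ccl9 among the monocyte ligands, and 5.76 for Ccr1, 2.97 for Ccr2 and 4.90 for Cx3cr1 among their receptors. They were 9.72 for Ccr7, 8.40 for Ccr9 and 3.85 for Cxcl16 in the lymphocyte and dendritic cell axis, 11.15 for the neutrophil receptor Cxcr2, 3.94 for the eosinophil receptor Ccr3 and 4.66 for Cxcr4. Over all 15553 genes tested, 9.64% were called up and 2.22% down. All 16 member calls were lost without Adult burn 1, Adult burn 2 or any 1 of the aged controls. Over all genes, 354 were called when Aged control 1 was left out and 0 in the rest of these fits. Without Adult control 1, calls over all genes went from 1845 to 1245. Of the 16 member calls, 10 were then lost: those of Ccl2, Ccl3, Ccl4, Ccl12, Ccr2, Ccr3, Ccr7, Ccr9, Cxcl16 and Cxcr2. The log2 difference was then 4.60 for Ccr7, 4.13 for Ccr9, 9.91 for Cxcr2 and 2.87 for Cxcl16, genes whose highest adult library was Adult control 1. For the other 6 of these it lay between 3.13 (Ccr2) and 4.98 (Ccl12). The burned area and the count table differ between the ages in the same way and cannot be told apart from age.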

How the results depend on the processing

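The limits are few libraries and strong single ones. Leaving out 1 library at a time gave 0 members called for burn in adults, 0 to 30 for burn in aged mice, 0 to 24 for the difference between ages and 0 to 15 for controls. The calls over all genes ran from 0 to 5, 0 to 5743, 0 to 4039 and 0 to 2011 in the same order. An arm left with 1 library fewer was assumed to vary like the others. The change in adults ran from -0.90 to 1.20 for Ccl2, from -0.68 to 0.22 for Ccr2 and from -3.79 to 0.20 for Cxcl13, and the control difference of Ccl2 from -0.87 to 0.029.

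The replicate numbers did not pair the libraries: deviations of same-numbered libraries correlated by 0.015, -0.002 and 0.234 in adults and -0.117, -0.211 and -0.066 in aged mice. With the replicate block, 7 members were called for burn in aged mice (6 of the 21, and Cxcl3) and 0 for the difference, and over all genes 0 in adults, 917 in aged mice, 413 for the difference and 0 for controls. DESeq2 called 22 members in aged mice, 18 of them among the 21 (it gave no adjusted p for Ccl7, Cxcl2 and Cxcl5), and 15 for controls. Its calls over all genes were 63, 4869, 3672 and 2149, for adults, aged mice, the difference and controls. With total-count scaling there were 2844 for the difference and 43 for controls, and the median of all genes moved by -0.20 in adults. All 12 libraries in the fit gave 14 genes in adults. A filter of 1 CPM in 3 libraries left 19 members in aged mice, since Ccr3 and Cxcr5 were no longer tested.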
